A study of Homo sapiens with 12 samples.

Results

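The footprint values of 7593 genes were compared between the 2 hairpins that target IGF2BP2 in MM6 cells, as shBP2-1 minus shBP2-2. Each library was first rescaled by a median-ratio factor, and a gene of the 19951 in the table was kept when its mean over the 4 ribosome profiling libraries of these hairpins reached 10. The control libraries did not enter that choice, while a gene under the minimum with 1 hairpin could pass through the other alone. MM6 (MonoMac6) is an established human acute myeloid leukemia line of monocytic type, and IGF2BP2 binds transcripts that carry the m6A modification. Cells had been transduced with lentivirus for 48 h and selected with puromycin for 2 days. They carried shBP2-1, shBP2-2 or a control hairpin (shNS). Each hairpin gave 2 ribosome profiling libraries, from cells held in cycloheximide for 15 min, and 2 mRNA libraries from cells of the same samples, so that the series held 12 libraries. The sources used here do not say whether replicates were separate cultures, so p-values measure only the spread between these libraries, which may be technical. The 2 hairpins share their target and the puromycin selection, and the comparison asks which genes' footprints depend on which of them was used.

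In ribosome profiling, the stretches of RNA covered by ribosomes survive nuclease digestion and are sequenced, so the number of footprints on a gene follows both the amount of its mRNA and how densely ribosomes sit on it. The footprint difference set against the mRNA difference is called translational efficiency. A short hairpin RNA is cut into a small interfering RNA that guides the destruction of transcripts matching it. Hairpins against 1 gene carry different guide sequences. Cytosolic ribosomes translate nuclear genes, while a separate set of ribosomes inside mitochondria translates the 13 proteins encoded by mitochondrial DNA.

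The deposited totals differed between the hairpins. Footprint values summed to 504631 and 456338 in the shBP2-1 libraries, against 1686279 and 2583384 in the shBP2-2 libraries, and 4884067 and 4423843 in the shNS libraries. The middle tested gene had a deposited value of 22 and 19 with shBP2-1, against 73 and 113 with shBP2-2. The libraries of shBP2-1 thus had the lowest deposited totals, while depth in reads is not known. Values given from here on are the authors' normalized read counts after rescaling. IGF2BP2 itself (chromosome 3, 185643130 to 185825042) had footprint values of 3.97 and 8.85 with shBP2-1, against 11.8 and 12.7 with shBP2-2, and 113 and 115 with shNS. At a mean of 9.34 over the 4 hairpin libraries it fell just under the minimum and was not tested in footprints. Its mRNA value was 473 and 497 with shBP2-1, against 714 and 777 with shBP2-2, a log2 difference of -0.62 ± 0.139 (adjusted p = 0.00426). The paralog IGF2BP1 had no footprints, and IGF2BP3 had a deposited value of 1 in each of the 4 hairpin libraries, too low for any comparison.

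The markers of the line's own type were present. All 15 markers of monocytes and AML cells had footprints and 14 passed the minimum. Their values summed to 29980 and 30840 with shBP2-1, against 17250 and 17020 with shBP2-2. LYZ, CTSG and S100A9 made up 25660 and 26380 of these sums with shBP2-1, against 14050 and 14040 with shBP2-2. Of the 14, 6 were higher and none lower, with a median difference of 0.16, where 7.14% of all genes were higher. Of the markers of other cells, 6 of 7 for erythroid cells and megakaryocytes, including HBB, were at 0 in all 4 libraries. Also at 0 were 6 of 8 T and NK cell markers (CD2, CD3D, CD3E, CD3G, GNLY and KLRD1) and 2 of 5 B cell markers (MS4A1 and PAX5). Of the epithelial or fibroblast markers, 4 of 7 were at 0 (EPCAM, KRT19, COL1A1 and COL1A2). The 7 summed to 21.8 and 13.3 with shBP2-1 against 12.4 and 17.7 with shBP2-2, and 1 passed the minimum and was not called (0.36). The cytotoxic granule gene NKG7 made up nearly all of the T and NK cell sum, with 113 and 113 with shBP2-1 against 187 and 161 with shBP2-2. In such bulk libraries, fewer cells of a type and less RNA per cell cannot be told apart.

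Of the 7593 genes, 976 differed between the hairpins (12.9%), 542 of them higher with shBP2-1 (7.14%) and 434 lower (5.72%). The test was limma with voom precision weights, two-sided, with p adjusted by Benjamini and Hochberg's method over the 7593 genes, and a gene was called below 0.05. Values after ± are the standard error of a log2 difference unless marked otherwise, with n = 2 libraries per hairpin. The median difference over all genes was 0.01 and the middle 90% of genes lay between -0.92 and 0.90. Without weights, a mean-variance trend on log2(value + 1) called 1266 genes, 559 higher and 707 lower, so the balance of directions depended on the test. The count also depended on single libraries. It was 344 without shBP2-1 replicate 1, 436 without shBP2-1 replicate 2, 1618 without shBP2-2 replicate 1 and 1738 without shBP2-2 replicate 2, and of the 976 calls 311, 401, 976 and 952 were kept. In 4686 genes (61.7%) the libraries of the hairpins did not overlap, with shBP2-1 above in 2291 (30.2%) and below in 2395 (31.5%).

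A gene's level decided how small a difference could be seen. Among genes with a mean value between 10 and 20, 5.37% were called, with a median standard error of 0.435. At a mean of 1000 or more, 47.6% were called, with a median standard error of 0.0517. The median difference stayed between -0.03 and 0.06 in all 6 level classes. A gene of low level that was not called may therefore differ by an amount these libraries could not show. Likewise, counts in a list of abundant genes are to be read beside the share called at their level, such as 35.1% at means of 300 to 1000.

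**Figure D1:**
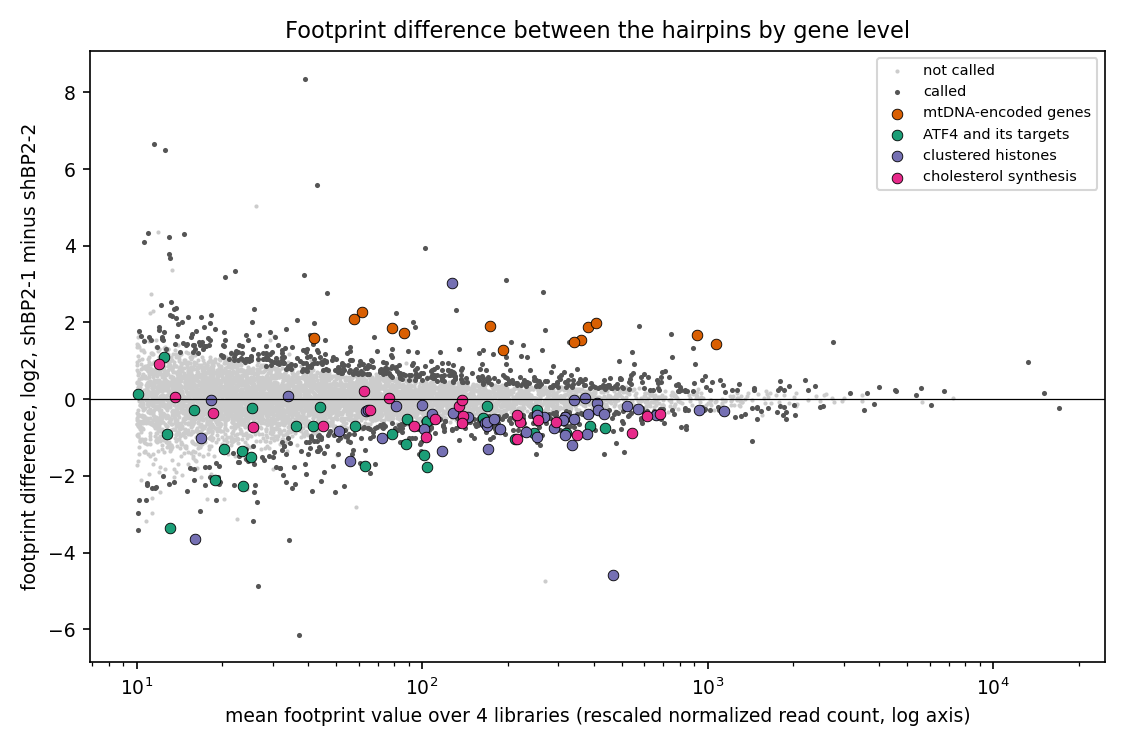
Footprint log2 difference (shBP2-1 minus shBP2-2, vertical axis) against the mean rescaled footprint value over the 4 hairpin libraries (horizontal axis, log scale) for the 7593 genes tested, with called genes dark and 4 lists coloured. The cloud narrows to the right, and the share of called genes runs from 5.37% at means of 10 to 20 to 47.6% at means of 1000 or more.

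Of the gene lists, that of mitochondrial DNA had the largest median difference. Its genes encode core subunits of the respiratory chain and ATP synthase. All 13 were tested and all 13 were higher with shBP2-1, with a median log2 difference of 1.72, while their mRNAs had a median difference of 0.17 and none of the 13 was called. Their footprint values summed to 6266 and 6386 with shBP2-1, against 1960 and 2086 with shBP2-2, and 3086 and 2573 with shNS. The control libraries thus lay between the hairpins. As a share of all footprints of a library, these genes made up 0.626% and 0.633% with shBP2-1, against 0.196% and 0.209% with shBP2-2, and 0.322% and 0.267% with shNS.

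The shift was seen in each complex that mitochondrial DNA has genes for. The 7 subunits of complex I, the NADH dehydrogenase, differed by 1.66 to 2.27. MT-ND5 had footprint values of 1376 and 1429 with shBP2-1, against 426 and 455 with shBP2-2, a log2 difference of 1.66 ± 0.0607 (adjusted p = 9.29e-09). MT-ND2 had the largest difference among them, with 99.1 and 106 with shBP2-1 against 17.2 and 24.7 with shBP2-2 (2.27 ± 0.217, adjusted p = 3.77e-05). In both genes each shBP2-1 library was above each shBP2-2 library, as in 30.2% of all genes. MT-CYB of complex III differed by 1.54, and the 3 subunits of cytochrome oxidase, complex IV, by 1.28 to 1.5. MT-CO1 was the most abundant of the 13 in footprints, with 1588 and 1550 with shBP2-1 against 557 and 592 with shBP2-2 (1.44 ± 0.0561, adjusted p = 1.04e-08). The ATP synthase subunits MT-ATP8 and MT-ATP6 differed by 1.59 and 1.92. Their reading frames overlap, as do those of MT-ND4L and MT-ND4, so reads in the overlaps could not be assigned to 1 gene.

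MT-ND6 is the protein gene encoded on the light strand of mitochondrial DNA, apart from the other 12. It had footprint values of 621 and 686 with shBP2-1, against 156 and 172 with shBP2-2, while its mRNA values were 3073 and 3755 with shBP2-1, against 2921 and 2628 with shBP2-2. The footprint difference was 1.98 ± 0.0894 (adjusted p = 3e-08). Its footprints per 1000 units of mRNA value were 202 and 183 with shBP2-1 and 53.3 and 65.3 with shBP2-2, far above the sum of all 13 genes, which had 4.4 and 3.85 per 1000 with shBP2-1, against 1.32 and 1.6 with shBP2-2. The labels give the molecule of the mRNA libraries as polyA RNA. How fully such libraries take in the mRNA of each mitochondrial gene was not tested. The ratio is thus not a measure of ribosome density alone. Whether cycloheximide held mitochondrial ribosomes in place as it does cytosolic ones was not tested either. The translational efficiency of these 13 genes may therefore not be comparable with that of nuclear genes. Translational efficiency was called higher with shBP2-1 for all 13 genes, by a median of 1.69 on the log2 scale, where 0.837% of all genes were called higher. Without the footprint library shBP2-1 replicate 2, 11 of the 13 kept that call. The 13 calls in footprints were kept in each alternative that rescaled the libraries, except that 1 gene was below the minimum when a mean of at least 50 was required. They were not kept on the deposited values as they stand, where 0 of these genes were higher and 1 was lower. Their median was then -0.38, against -2.12 over all genes tested. The shift is thus relative to the other genes of the same libraries.

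**Figure D2:**
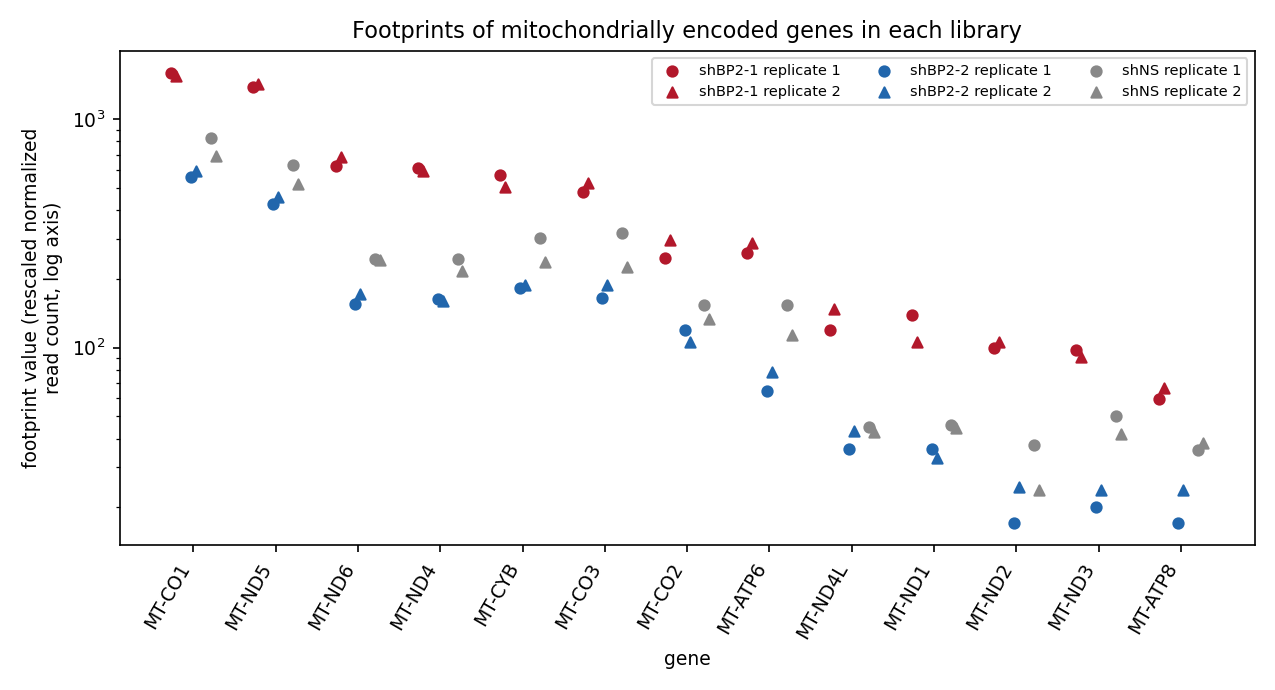
Rescaled footprint values of the 13 genes of mitochondrial DNA in each library (vertical axis, log scale), with shBP2-1 left of shBP2-2 and shNS at the right; each point is 1 library. Both shBP2-1 libraries lie above both shBP2-2 libraries for every gene, and the sums are 6266 and 6386 against 1960 and 2086.

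Entries of the MTRNR2L family moved with these genes. They are nuclear copies of the mitochondrial 16S ribosomal RNA sequence, so fragments of mitochondrial ribosomal RNA can be assigned to them. Their 10 entries summed to 1732 and 1868 with shBP2-1, against 441 and 483 with shBP2-2, and 361 and 406 with shNS. MTRNR2L8 (chromosome 11, 10507887 to 10509176) had 432 and 500 with shBP2-1, against 66.3 and 66.3 with shBP2-2, a difference of 2.80 ± 0.115 (adjusted p = 1.6e-08), and MTRNR2L1 differed by 1.71 ± 0.0655. In the sum and in MTRNR2L1 the shBP2-2 libraries lay above the shNS libraries, while in MTRNR2L8 and MTRNR2L6 they lay below them. What part fragments of mitochondrial ribosomal RNA have in the footprints of the 13 genes was not tested.

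Nuclear genes for the same complexes differed far less. Of 76 nuclear genes for subunits of complexes I to V, 14 were higher with shBP2-1 and 2 lower, with a median difference of 0.09, against 12.9% called and a median of 0.01 over all genes. The largest was ATP5F1D, the delta subunit of ATP synthase (chromosome 19, 1241751 to 1244825), with 91.2 and 113 with shBP2-1 against 35.5 and 31.2 with shBP2-2 (1.62 ± 0.188, adjusted p = 0.000187). Its mRNA differed by 1.56 (adjusted p = 1.47e-06). NDUFA10, an accessory subunit of complex I, had 228 and 234 with shBP2-1, against 89.9 and 99.1 with shBP2-2 (1.28 ± 0.119, adjusted p = 2.99e-05), and its mRNA differed by 0.39. NDUFA10 was also called higher in translational efficiency (0.89 ± 0.169, adjusted p = 0.00553). Smaller differences were seen in NDUFV1 (0.67), COX6C (0.52) and ATP5MG (0.52). Of the proteins of the mitochondrial ribosome, which builds the 13 mitochondrial proteins, 78 were tested, 1 was higher (MRPL58, 0.50, a call lost without either shBP2-1 library) and 5 were lower, with a median of 0.05. On the list of TCA cycle genes, which also holds cytosolic enzymes, 3 of 24 were higher and none lower, with a median of 0.09. IDH1, the cytosolic isocitrate dehydrogenase, led that list with 422 and 416 with shBP2-1 against 113 and 124 with shBP2-2 (1.81 ± 0.0978, adjusted p = 2.24e-07), and its mRNA differed by 1.35.

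Genes of the ATF4 response were lower with shBP2-1. ATF4 is the transcription factor of the integrated stress response, which turns on amino acid synthesis, amino acid import and stress regulators when eIF2 is phosphorylated or amino acids run short. Of 40 genes listed as ATF4 and its targets, 30 passed the minimum. Of these, 16 were lower and none higher, where 5.72% of all genes were lower, with a median difference of -0.81 against 0.01 over all genes. In mRNA, 34 of the 38 tested were lower and none higher, with a median of -1.0, where 9.79% of 12199 genes were lower. None of the 30 was called in translational efficiency, where only 1.17% of all genes were called. Of the 16, CHAC1, STC2 and VEGFA reached the minimum through shBP2-2 alone, and at a mean of at least 50 the list had 12 lower of 16 tested. The list lost calls without single libraries, with 9 lower without shBP2-1 replicate 1 and 8 without shBP2-1 replicate 2. The ATF/C/EBP composite element, to which ATF4 binds together with C/EBP factors, was searched as TGATGNAA on both strands of the 250 bases before each gene's start in the RefSeq promoter table (GRCh38.p14). It was in 4 of 26 promoters of the tested list members (15.4%), in 79 of 6221 promoters of all tested genes (1.27%) and in 870 of 27305 promoters of the whole table (3.19%). Of the 14 promoters of members called lower, 2 held it, and the other matches were in members not called. A match describes these letters only and is not a site shown to be bound. The windows of ASNS, the asparagine synthetase gene, and of CHAC1, a glutathione-degrading enzyme gene, are shown because both genes were lower and both hold the element, in capitals, written 5′ to 3′ on the gene's strand. They lie at chr7:97872438-97872507 on the minus strand and chr15:40953231-40953300 on the plus strand, and CHAC1 holds the element in reverse complement.
ASNS: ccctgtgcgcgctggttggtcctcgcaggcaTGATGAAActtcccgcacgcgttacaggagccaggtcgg
CHAC1: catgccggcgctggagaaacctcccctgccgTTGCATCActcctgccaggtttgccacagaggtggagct

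Footprints of ASNS were 55.5 and 53.1 with shBP2-1, against 138 and 161 with shBP2-2, and 237 and 266 with shNS. The difference between the hairpins was -1.45 ± 0.209 (adjusted p = 0.000891). CHAC1, named for its promoter after its values were seen, had 3.97 and 0 with shBP2-1, against 26.04 and 22.4 with shBP2-2, and 39.6 and 34.5 with shNS (-3.36 ± 0.711, adjusted p = 0.0102). It reached the minimum through shBP2-2 alone, so its call is a description, and that call ended at -2.27 (adjusted p = 0.169) once shBP2-1 replicate 2 was left out. In both genes, picked as lower, shBP2-1 lay lowest and shNS highest, with no overlap between groups. The libraries of the 2 hairpins did not overlap in 61.7% of all genes. DDIT4, an inhibitor of mTORC1 signalling, had 39.7 and 53.1 with shBP2-1 against 176 and 147 with shBP2-2 (-1.77 ± 0.244, adjusted p = 0.000657). ATF4 itself had low footprint values, 9.91 and 6.63 with shBP2-1 against 17.8 and 16.96 with shBP2-2, and was not called (-0.92 ± 0.48, adjusted p = 0.23), while its mRNA was lower by -0.80 (adjusted p = 0.000144).

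Some genes for making and importing amino acids were lower as well. PSAT1, which makes phosphoserine, had 151 and 124 with shBP2-1 against 296 and 277 with shBP2-2 (-1.04 ± 0.137, adjusted p = 0.000487). MTHFD2, the mitochondrial folate enzyme, had 222 and 223 with shBP2-1 against 410 and 420 with shBP2-2 (-0.89 ± 0.101, adjusted p = 0.000156). Of 13 serine and one-carbon genes tested, 3 were lower and none higher, with a median of -0.29, where 5.72% of all genes were lower. The third of them, PHGDH, lost its call without either shBP2-1 library (-0.49 ± 0.143, adjusted p = 0.0454).

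Of 15 amino acid transporters tested, 5 were lower and none higher, with a median of -0.33, and the other 10 were not called. Over all genes 5.72% were lower and 7.14% higher. The cystine importer SLC7A11 had 27.8 and 28.8 with shBP2-1, against 104 and 93.3 with shBP2-2, and 143 and 140 with shNS (-1.74 ± 0.269, adjusted p = 0.00144). Arginine importer SLC7A1 had 335 and 316 with shBP2-1 against 558 and 536 with shBP2-2 (-0.74 ± 0.0883, adjusted p = 0.000243). SLC1A4 and SLC1A3 were lower by -0.85 and -0.39. SLC1A4 lost its call without shBP2-1 replicate 1, and SLC1A3 without either shBP2-1 library and under 4 other settings. Of the tRNA synthetases, which join amino acids to their tRNAs, 8 of 36 were lower and 2 higher, with a median of -0.08. NARS1, for asparagine, had 345 and 330 with shBP2-1, against 563 and 621 with shBP2-2 (-0.82 ± 0.0981, adjusted p = 0.000243). QARS1, for glutamine, went the other way at 0.41 ± 0.0848, a call lost without shBP2-1 replicate 2.

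Genes for glutamine uptake and conversion were 7 lower and 0 higher of 23 tested, with a median of -0.33, where 5.72% of all genes were lower. SLC38A2, a sodium-coupled neutral amino acid importer (chromosome 12), had 242 and 226 with shBP2-1, against 607 and 664 with shBP2-2, and 810 and 812 with shNS (-1.44 ± 0.112, adjusted p = 6.53e-06). SLC1A5 imports glutamine and lies on chromosome 19 (46774883 to 46788594). It had 391 and 380 with shBP2-1, against 541 and 545 with shBP2-2, and 553 and 531 with shNS (-0.49 ± 0.0797, adjusted p = 0.00209). For SLC1A5 the shBP2-2 libraries overlapped those of the control and the shBP2-1 libraries lay below both. SLC3A2, the heavy chain shared by several amino acid exchangers, was lower by -0.88 ± 0.121 (adjusted p = 0.000614). GPT2, the mitochondrial alanine transaminase, had 19.8 and 8.85 with shBP2-1 against 11.2 and 13.9 with shBP2-2 and was not called in footprints (0.18 ± 0.445, adjusted p = 0.83). Its mRNA was lower by -0.89 (adjusted p = 0.000423). GLUL, glutamine synthetase, and MYC, a transcription factor that drives growth, were not called, at 0.16 ± 0.0921 (adjusted p = 0.27) and -0.11 ± 0.0801 (adjusted p = 0.401).

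In cholesterol synthesis all calls in footprints were in 1 direction. SREBF2 encodes the transcription factor that turns on these enzymes when sterols are low. Of 24 genes tested, 12 were lower with shBP2-1 and none higher, with a median of -0.49, while in mRNA 6 were lower and 2 higher with a median of -0.19. In translational efficiency 1 of the 24 was lower and none higher, with a median of -0.26. Over all genes 5.72% were lower in footprints, 9.79% in mRNA and 0.332% in translational efficiency. HMGCS1, which makes HMG-CoA, had 240 and 237 with shBP2-1, against 461 and 455 with shBP2-2, and 331 and 328 with shNS (-0.93 ± 0.0974, adjusted p = 7.64e-05). FDPS, which makes farnesyl diphosphate, had 385 and 380 with shBP2-1, against 683 and 725 with shBP2-2, and 545 and 553 with shNS (-0.88 ± 0.0844, adjusted p = 3.72e-05). CYP51A1, the lanosterol demethylase, differed by -1.05 ± 0.138 (adjusted p = 0.000472). In HMGCS1 and FDPS the control lay between the hairpins, unlike in ASNS, SLC7A11 and SLC38A2, where it lay above both. The list held 4 lower genes without shBP2-1 replicate 1 and 8 without shBP2-1 replicate 2. FADS2, a fatty acid desaturase outside the list, had 288 and 281 with shBP2-1 against 739 and 733 with shBP2-2 (-1.37 ± 0.0883, adjusted p = 1.2e-06). A sterol regulatory element, searched as TCACNCCAC on both strands, was in 1 of 18 promoters of the tested members (5.56%) and in 56 of 6221 promoters of all tested genes (0.9%). The member was SREBF2 itself, lower by -0.69 ± 0.192 in footprints (adjusted p = 0.0356), a call lost without either shBP2-1 library, and its window at chr22:41832942-41833011 on the plus strand is shown with the element in capitals.
SREBF2: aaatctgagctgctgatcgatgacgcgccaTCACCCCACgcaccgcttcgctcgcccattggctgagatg

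**Figure D3:**
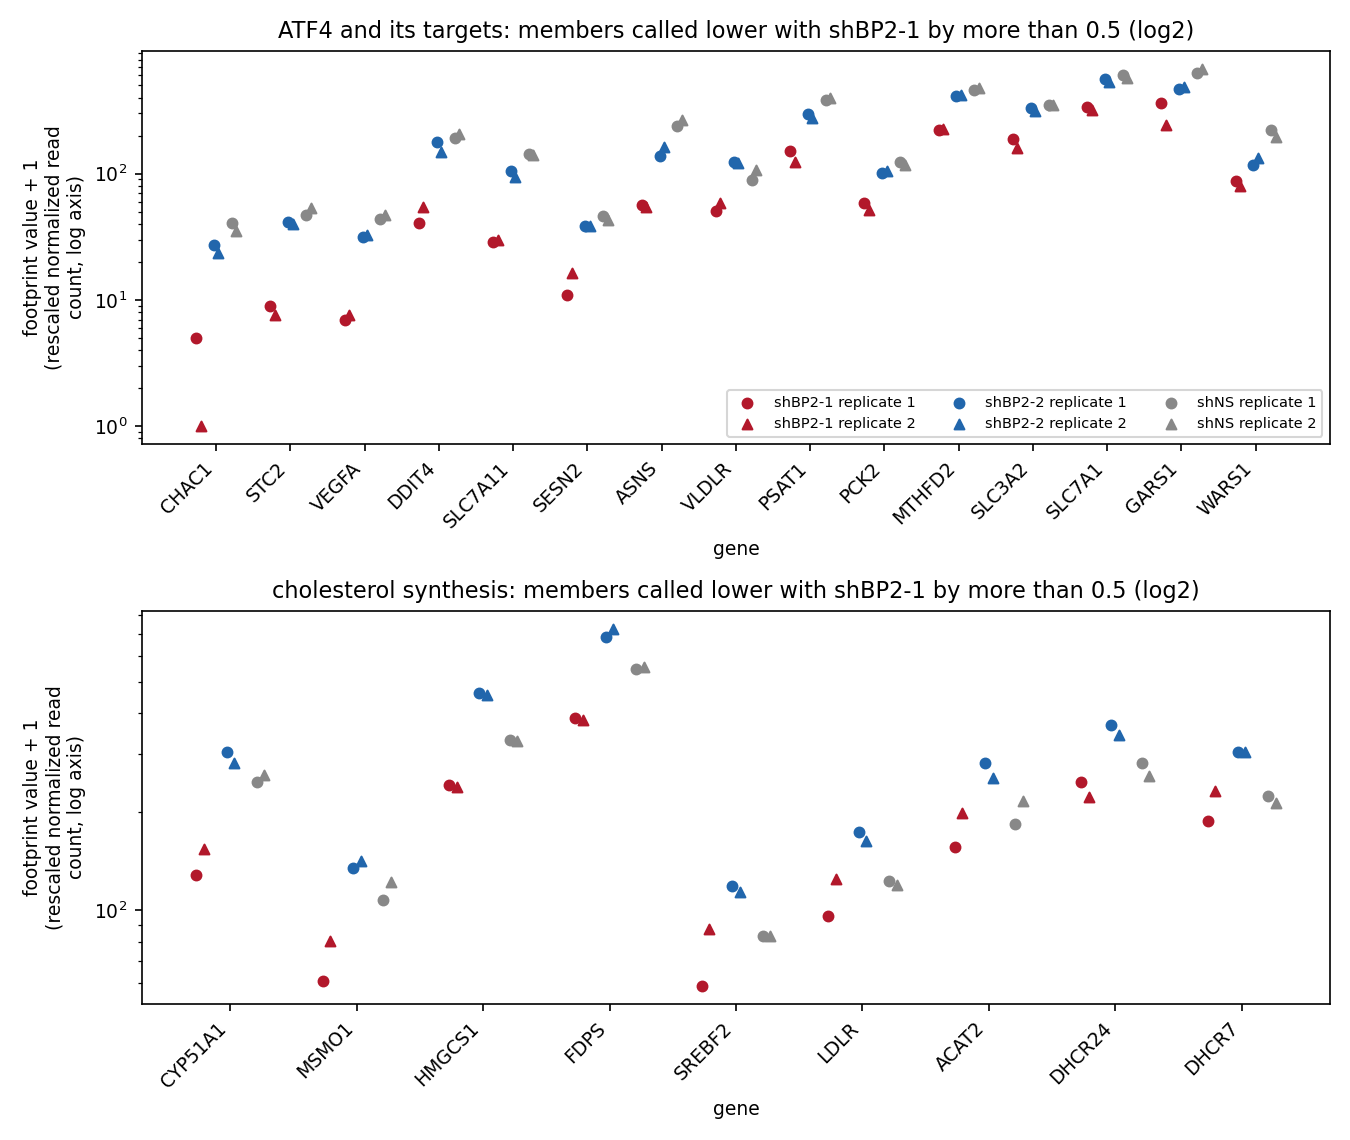
Rescaled footprint values by library (vertical axis, log scale) for the members called lower by more than 0.5 on the log2 scale in the ATF4 list (upper panel) and the cholesterol list (lower panel), drawn as value + 1, with shBP2-1 left of shBP2-2 and shNS at the right; each point is 1 library. The genes drawn were chosen as lower with shBP2-1, so that their shBP2-1 libraries lie below those of shBP2-2 follows from that choice. The shNS libraries lie above both for ASNS and between them for HMGCS1.

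Clustered histone genes were lower with shBP2-1. They encode the core and linker histones that package newly made DNA, and their mRNAs end in a stem-loop and not in a poly(A) tail. Of 46 tested, 29 were lower and none higher, with a median of -0.46, where 5.72% of all genes were lower. By class, 8 of 11 H2A genes were lower (median -0.63), 9 of 12 H2B genes (median -0.72), 3 of 7 H3 genes (median -0.27), 7 of 11 H4 genes (median -0.41) and 2 of 5 linker histone genes (median -0.17). Leaving out H4C11 and H4C12, which share sequence, 28 of the 44 other genes tested were lower. The 49 other genes with values, tested or not, summed to 9603 and 9953 with shBP2-1, against 14060 and 13130 with shBP2-2, and 13370 and 12500 with shNS. The shBP2-2 libraries were thus near the control and the shBP2-1 libraries below both. The list was smaller in some alternatives, with 11 lower without shBP2-1 replicate 1, 16 without shBP2-1 replicate 2, 18 after quantile scaling and 16 with the control libraries in the fit.

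H2AC17 (chromosome 6) had footprint values of 210 and 195 with shBP2-1, against 483 and 456 with shBP2-2, a difference of -1.20 ± 0.111 (adjusted p = 2.88e-05). H2AC6 had 165 and 175 with shBP2-1 against 343 and 330 with shBP2-2 (-0.98 ± 0.116, adjusted p = 0.000229), H2AC12 differed by -0.90 ± 0.109 and H3C10 by -0.93 ± 0.123. H2BC21 (chromosome 1) had 127 and 73.0 with shBP2-1 against 235 and 247 with shBP2-2 (-1.30 ± 0.19, adjusted p = 0.00104). H2AC16, chosen for its promoter after its values were seen, had 81.3 and 50.9 with shBP2-1 against 173 and 166 with shBP2-2 (-1.35 ± 0.199, adjusted p = 0.00104). In H2AC17, H2AC6, H2BC21 and H2AC16, all picked as lower, the libraries of the hairpins did not overlap, as in 61.7% of all genes. H3-3A, a replacement histone gene outside the clusters whose mRNA is polyadenylated, was also lower, with 284 and 301 with shBP2-1 against 737 and 592 with shBP2-2 (-1.15 ± 0.155, adjusted p = 0.000564). Translational efficiency could be tested in 27 of the histone genes, of which 3 were lower and none higher, with a median of -0.43. Over all genes 0.332% were lower in translational efficiency. Of the 69 genes tested in footprints whose mRNA fell under the minimum, 19 were clustered histones. Where mRNA was tested, 3 of 28 histones were lower and 2 higher, with a median of -0.19. Over all genes 9.79% were lower in mRNA and 8.48% higher. The labels give the molecule of these libraries as polyA RNA.

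Promoters of H2A and H2B genes are known for an octamer, ATTTGCAT, that is read by OCT1. It was in 18 of 41 promoters of the tested histone genes (43.9%), searched on both strands of the 250 bases before the start, and in 92 of 6221 promoters of all tested genes (1.48%). Of the 27 promoters of members called lower, 15 held it. By class it was in 8 of 10 H2A promoters, 9 of 12 H2B promoters, 1 of 5 H3 promoters, 0 of 9 H4 promoters and 0 of 5 linker histone promoters. Some neighbours, such as H2BC8 (ending at 26216688) and H2AC8 (starting at 26216921), lie closer together than the 250 bases searched. The same bases may therefore count for several promoters, which was not tested. Windows of lower genes that hold it are shown, from chr6:27893245-27893314 on the minus strand (H2AC17), chr6:26124011-26124080 on the plus strand (H2AC6), chr1:149886690-149886759 on the minus strand (H2BC21) and chr6:27865080-27865149 on the plus strand (H2AC16). Capitals mark the octamer or its reverse complement.
H2AC17: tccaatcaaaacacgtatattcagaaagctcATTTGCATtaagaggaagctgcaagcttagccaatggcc
H2AC6: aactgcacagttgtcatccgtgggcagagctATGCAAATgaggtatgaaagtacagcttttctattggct
H2BC21: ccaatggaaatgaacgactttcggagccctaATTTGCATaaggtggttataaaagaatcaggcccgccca
H2AC16: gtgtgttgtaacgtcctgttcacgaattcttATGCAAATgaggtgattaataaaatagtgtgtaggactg

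Genes of DNA replication, which run with histone synthesis in S phase, were 7 lower and 2 higher of 37, with a median of -0.17. Over all genes 5.72% were lower and 7.14% higher. By level, 20% were called in either direction at means of 100 to 300 and 35.1% at 300 to 1000. MCM6, a subunit of the replicative helicase, had 444 and 491 with shBP2-1 against 706 and 721 with shBP2-2 (-0.61 ± 0.0768, adjusted p = 0.000327). RRM2, which makes deoxynucleotides, had 268 and 237 with shBP2-1 against 401 and 415 with shBP2-2 (-0.69 ± 0.101, adjusted p = 0.00102). Genes of G2 and mitosis were 6 higher and 3 lower of 35, with a median of 0.16. MKI67, the proliferation marker, had 482 and 535 with shBP2-1 against 376 and 346 with shBP2-2 (0.50 ± 0.086, adjusted p = 0.00301). PLK1 and TPX2 were each higher by 0.51, and lost their calls without shBP2-1 replicate 2 (PLK1) or replicate 1 (TPX2). CKS1B differed by -3.35 ± 0.729, with 0 and 4.42 with shBP2-1 against 25.4 and 22.4 with shBP2-2. It reached the minimum through shBP2-2 alone, and lost its call without shBP2-1 replicate 1. At a mean of at least 50 the list had 11 higher and 2 lower of 31.

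Lysozyme, calprotectin and proteinase 3, abundant proteins of myeloid granules and cytosol, were higher with shBP2-1, but their list went both ways. Of 32 granule and monocyte genes tested, 12 were higher and 5 lower, with a median of -0.07. Over all genes 7.14% were higher and 5.72% lower. By level, 35.1% were called in either direction at means of 300 to 1000 and 47.6% at 1000 or more. LYZ, which encodes lysozyme, had 17370 and 17680 with shBP2-1, against 8965 and 9094 with shBP2-2, and 10070 and 11120 with shNS (0.96 ± 0.0167, adjusted p = 4.39e-12). S100A9 and S100A8, which form calprotectin, had 3994 and 4151 (S100A9) with shBP2-1 against 1433 and 1470 with shBP2-2 (1.48 ± 0.0371), and 1319 and 1236 (S100A8) with shBP2-1 against 514 and 498 with shBP2-2 (1.34 ± 0.0595). PRTN3, proteinase 3 (chromosome 19, 840999 to 848175), had 153 and 144 with shBP2-1 against 43.2 and 33.5 with shBP2-2 (2.00 ± 0.172, adjusted p = 1.7e-05). The mRNA differences of LYZ, S100A9, S100A8 and PRTN3 were 0.98, 1.45, 1.55 and 1.78, all called. None of these genes was called in translational efficiency, where only 1.17% of all genes were called. Of the lower members, VCAN and LGALS1, named after their values were seen, differed by -0.73 and -0.81. IL6R, an interleukin receptor chain, had 119 and 133 with shBP2-1 against 48.5 and 55.9 with shBP2-2 (1.25 ± 0.161, adjusted p = 0.000408).

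Of 17 inflammatory genes tested, 3 were lower and none higher, with a median of -0.13, where 5.72% of all genes were lower. CCL2, a chemokine that draws monocytes, had 25.8 and 39.8 with shBP2-1, against 104 and 104 with shBP2-2, and 59.96 and 52.1 with shNS (-1.68 ± 0.256, adjusted p = 0.00134). CXCL8 and IL1B were lower by -1.95 and -0.95. CXCL8 lost its call without shBP2-1 replicate 2, and IL1B without either shBP2-1 library. Among genes of leukemia self-renewal, 5 of 17 were lower and none higher, with a median of -0.38. In mRNA 10 of 21 were lower with a median of -0.35, where 9.79% of all genes were lower. FLT3, the receptor kinase of leukemic progenitors, had 1584 and 1504 with shBP2-1, against 2179 and 2240 with shBP2-2, and 2054 and 2112 with shNS (-0.52 ± 0.048, adjusted p = 2.88e-05). CD44, an adhesion receptor, differed by -0.67 ± 0.0994 (adjusted p = 0.00113). PBX3, a partner of HOX proteins, had 9.91 and 6.63 with shBP2-1 against 43.2 and 43.9 with shBP2-2 (-2.24 ± 0.466, adjusted p = 0.00918). It reached the minimum through shBP2-2 alone, and lost that call without either shBP2-1 library.

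IFNAR1, a chain of the type I interferon receptor (chromosome 21, 33324395 to 33359864), was higher with shBP2-1 while its mRNA was not called. It had 186 and 254 with shBP2-1, against 38.5 and 47.0 with shBP2-2, and 34.1 and 40.8 with shNS, a difference of 2.32 ± 0.175 (adjusted p = 5.38e-06). Its mRNA values were 3374 and 3767 with shBP2-1, against 3270 and 3063 with shBP2-2 (0.17 ± 0.122, adjusted p = 0.355). Its translational efficiency was called higher by 2.14 ± 0.212 (adjusted p = 3.04e-07). Of the 28 interferon genes tested, 2 were higher and none lower, where 7.14% of all genes were higher and 5.72% lower. Besides IFNAR1 this was SP110, at 0.92, a call lost without either shBP2-1 library. The median of the list was 0.11. TMC5 (chromosome 16, 19410539 to 19499113), which belongs to the family of transmembrane channel-like proteins, had the largest difference among the higher genes with a mean of at least 50, readthrough entries left out. Its footprints were 371 and 336 with shBP2-1, against 42.0 and 39.7 with shBP2-2, and 28.4 and 49.3 with shNS (3.12 ± 0.132, adjusted p = 1.92e-08). The mRNA of TMC5 was nearly absent, at 0.991 and 2.94 with shBP2-1 against 2.05 and 4.03 with shBP2-2. With mRNA under the minimum, TMC5 had no test of translational efficiency. Whether these footprints come from TMC5 mRNA cannot be seen from a table of genes.

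Ribosomal protein genes went both ways. Their mRNAs begin with a terminal oligopyrimidine tract through which mTORC1 signalling sets their translation. In the large subunit 13 of 50 were higher and 8 lower, with a median of 0.03, and in the small subunit 6 of 34 were higher and 5 lower, with a median of 0.10. Over all genes 7.14% were higher and 5.72% lower, and 35.1% were called in either direction at means of 300 to 1000. RPL27A (chromosome 11, 8682792 to 8689872) had 871 and 942 with shBP2-1, against 250 and 236 with shBP2-2, and 816 and 1051 with shNS (1.90 ± 0.0744, adjusted p = 1.04e-08). Its mRNA values were 19530 and 17290 with shBP2-1, against 5688 and 6089 with shBP2-2, a difference of 1.64. RPL6 had 984 and 1075 with shBP2-1, against 483 and 469 with shBP2-2, and 1084 and 843 with shNS (1.11 ± 0.065, adjusted p = 4.44e-07), with an mRNA difference of 0.14. In RPL27A and RPL6 shBP2-2 was the hairpin that stood away from the control. RPS15 (0.73), RPS25 (0.49), RPL23 (0.45) and RPL13A (0.39) were higher. Ribosomal protein genes have many processed pseudogenes that can share their reads. Among other mRNAs with such tracts 3 of 24 were higher and 4 lower, and EEF1A1, the elongation factor, had 15530 and 15770 with shBP2-1 against 18470 and 18150 with shBP2-2 (-0.23 ± 0.0177, adjusted p = 6.59e-06).

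Heat shock proteins, which help other proteins fold, were 10 higher and 1 lower of 22, with a median of 0.19. Over all genes 7.14% were higher and 5.72% lower. HSPH1, a co-chaperone of HSP70, had 637 and 681 with shBP2-1, against 418 and 426 with shBP2-2 (0.64 ± 0.0709, adjusted p = 0.00013). HSP90AA1 had 6064 and 6287 with shBP2-1 against 4907 and 5093 with shBP2-2 (0.30 ± 0.0312, adjusted p = 7.99e-05), and HSPA8 differed by 0.22 ± 0.0239. HSPA1A differed by 1.40 ± 0.139, but it shares nearly all its sequence with HSPA1B, and the pair summed to 539 and 690 with shBP2-1 against 391 and 384 with shBP2-2. The lower member was HSPA9, the mitochondrial HSP70 (-0.27), named after its values were seen, a call lost without shBP2-1 replicate 2. Without shBP2-1 replicate 1, or without shBP2-1 replicate 2, 6 of the list were higher. Chaperones of the endoplasmic reticulum were 2 higher and 5 lower of 24, with HYOU1 at -0.63 ± 0.079 and P4HB at 0.24 ± 0.0293.

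In glycolysis 6 of 22 genes were higher and 3 lower, with a median of 0.08. Over all genes 7.14% were higher and 5.72% lower. By level, 35.1% were called in either direction at means of 300 to 1000 and 47.6% at 1000 or more. HK2, a hexokinase, had 349 and 349 with shBP2-1 against 224 and 208 with shBP2-2 (0.71 ± 0.0939, adjusted p = 0.000505). PKM, a pyruvate kinase, differed by 0.20 ± 0.0289 and by -0.02 (adjusted p = 0.617) after quantile scaling, so that its direction depended on the scaling. Among genes of iron handling 2 of 15 were higher and 1 lower, with a median of 0.18. FTL, the ferritin light chain, had 294 and 314 with shBP2-1, against 103 and 112 with shBP2-2, and 104 and 102 with shNS (1.49 ± 0.108, adjusted p = 3.8e-06), and its mRNA differed by 0.85. TKT, of the pentose phosphate pathway, was higher by 0.66 ± 0.0768, and PRDX1, a peroxiredoxin, was lower by -0.40 ± 0.048. Among lysosomal genes 5 of 35 were higher and 3 lower, with CTSZ at 0.77 ± 0.104 and CTSA at 0.71 ± 0.0861. The proteasome counted 2 higher and 1 lower of 36, with a median of 0.09.

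**Figure D4:**
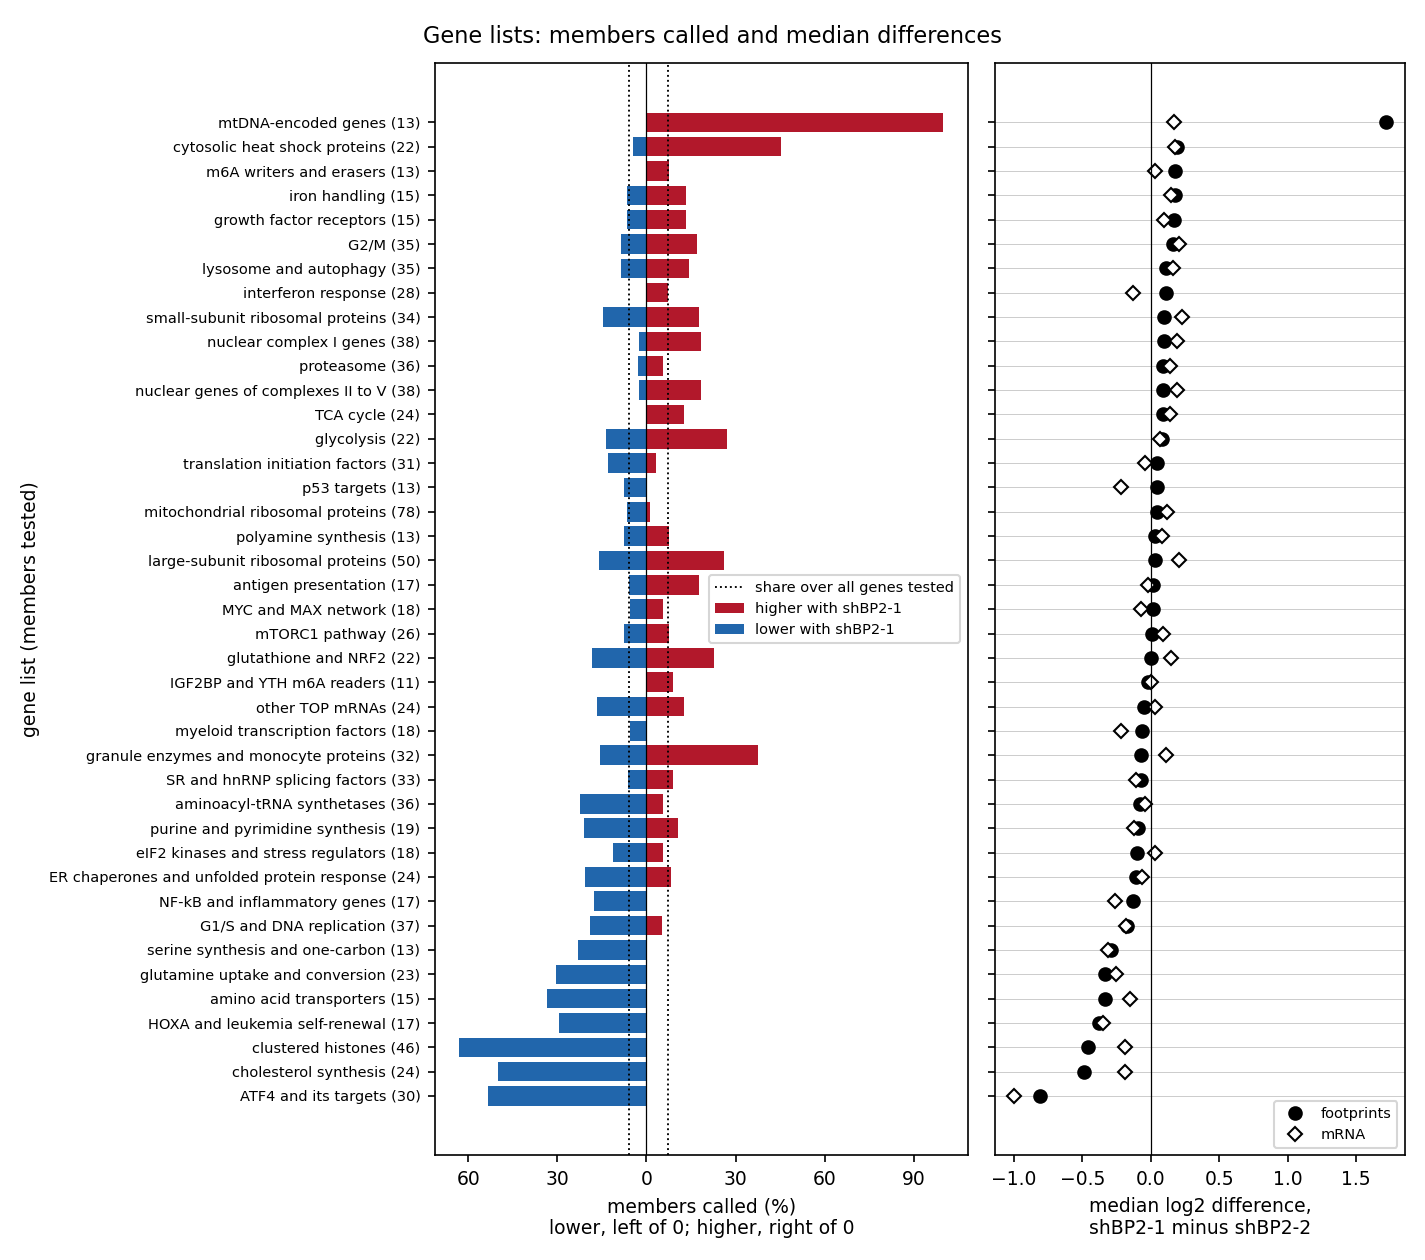
Gene lists with the percent of tested members called higher or lower with shBP2-1 (left panel, number tested in parentheses, dotted lines at 7.14% and 5.72% for all genes) and the median log2 difference, shBP2-1 minus shBP2-2, in footprints (filled) and mRNA (open) (right panel). Lists of cell type markers and lists with few members tested are not drawn. The list of mitochondrial DNA lies far to the right in footprints at 1.72 but not in mRNA at 0.17. Among the lists drawn, the ATF4 list lies farthest left in both, at -0.81 and -1.0.

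Footprint differences were set beside mRNA differences in the 7524 genes tested in both assays. In mRNA 2229 of 12199 genes were called (18.3%), 1035 higher (8.48%) and 1194 lower (9.79%). After scaling by totals the split was 575 and 1007, after upper-quartile scaling 950 and 1453, and without rescaling 1308 and 1049. The mRNA count was 1129 without shBP2-2 replicate 1, 1240 without shBP2-2 replicate 2, 2020 without shBP2-1 replicate 1 and 3004 without shBP2-1 replicate 2. Across genes the 2 differences had a Pearson r of 0.504 and a Spearman rho of 0.502 over all 7524, and 0.615 and 0.688 over the 1981 genes with a mean footprint value of at least 100. Genes are not independent replicates, and footprint and mRNA libraries came from the same samples.

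Of the genes called in footprints and tested in both, 213 were also called higher in mRNA and 186 also called lower, 316 were higher and 237 lower in footprints alone, and 4 were called with opposite signs. AHI1 (chromosome 6) was higher in footprints by 1.39 ± 0.352, with 23.8 and 26.5 with shBP2-1 against 7.69 and 11.2 with shBP2-2, and lower in mRNA by -0.52 ± 0.13. AHI1 reached the minimum through shBP2-1 alone, and its footprint call was lost without either shBP2-1 library. H2AC18 and ARPC4 were lower in footprints and higher in mRNA, and both share sequence with another entry. The fourth, named after its values were seen, was the readthrough entry MICOS10-NBL1, at 1.36 in footprints.

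Translational efficiency differed in 88 of 7524 genes (1.17%), 63 higher (0.837%) and 25 lower (0.332%). Under the trend test 46 were higher and 61 lower, and after scaling by totals 29 and 6. The count was 41 without the footprint library shBP2-1 replicate 1, 38 without shBP2-1 replicate 2 and 188 without shBP2-2 replicate 2, and among mRNA libraries 143 without shBP2-1 replicate 1 and 161 without shBP2-1 replicate 2. The 13 mitochondrial genes made up 13 of the 63. RPL6 was higher by 0.97 ± 0.142 (adjusted p = 0.000172). NIP7, a ribosome assembly factor, was lower by -1.44 ± 0.34 (adjusted p = 0.0322), with footprints of 37.7 and 17.7 with shBP2-1 against 67.5 and 80.2 with shBP2-2 and mRNA of 1323 and 1298 with shBP2-1 against 1338 and 1301 with shBP2-2. The footprint call of NIP7 was lost without shBP2-1 replicate 2. H3-3A was lower by -0.94 ± 0.205 (adjusted p = 0.0162). Of the 88 genes, 57 were also higher and 23 also lower in footprints.

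**Figure D5:**
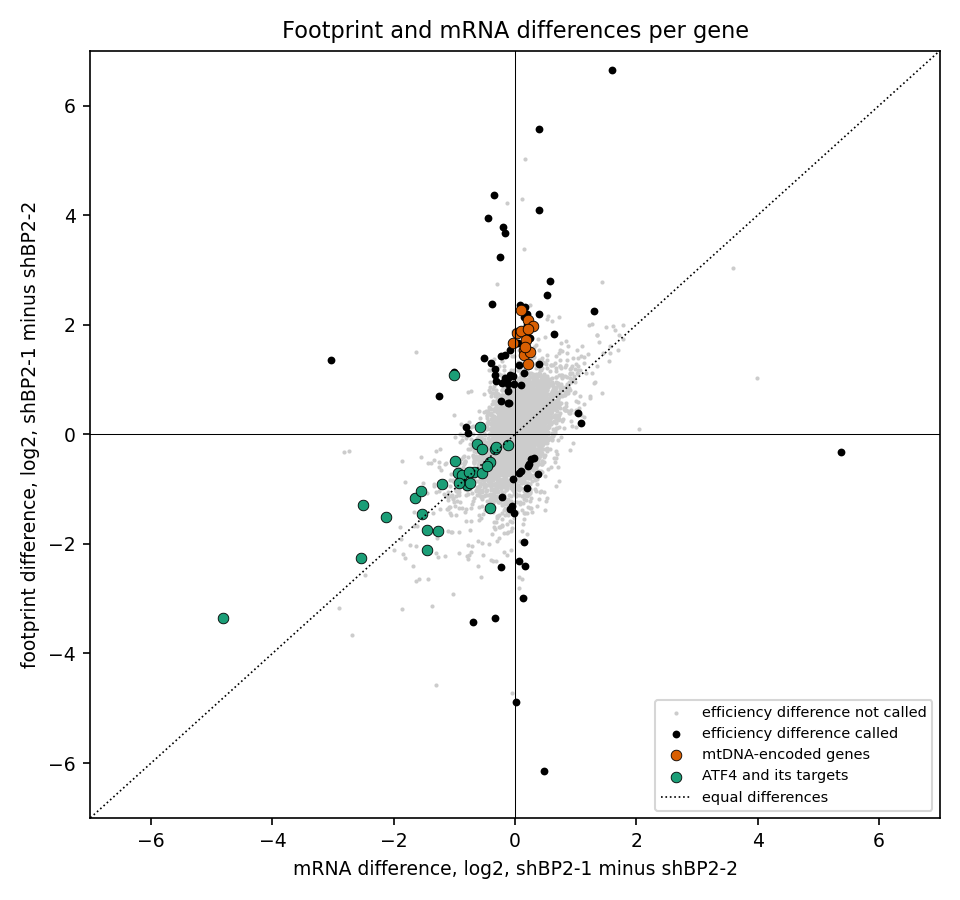
Footprint log2 difference (vertical axis) against mRNA log2 difference (horizontal axis), both shBP2-1 minus shBP2-2, for the 7524 genes tested in both assays, with genes called in translational efficiency in black, mitochondrial genes in orange, the ATF4 list in green and a dotted line for equal differences. The cloud rises (Pearson r 0.504 across genes), and the 13 mitochondrial genes stand above it at mRNA differences near 0.

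Several other lower genes had like differences in mRNA. CLIC4, a chloride intracellular channel gene, had footprints of 29.7 and 26.5 with shBP2-1, against 92.9 and 92.9 with shBP2-2, and 106 and 113 with shNS (-1.67 ± 0.258, adjusted p = 0.00144), with an mRNA difference of -1.66. SERPINE2, a protease inhibitor, differed by -1.42 ± 0.249 in footprints and -1.66 in mRNA. ADAMTS1, a secreted metalloprotease, had 137 and 135 with shBP2-1, against 364 and 371 with shBP2-2, and 159 and 142 with shNS (-1.43 ± 0.124, adjusted p = 1.72e-05), with an mRNA difference of -1.08. For ADAMTS1 the shBP2-2 libraries lay above the control, while for CLIC4 the shBP2-1 libraries lay farther below it than those of shBP2-2. TPSB2, a mast cell tryptase gene nearly identical to TPSAB1, differed by -1.09 ± 0.0838, and the pair summed to 1041 and 1075 with shBP2-1 against 2369 and 2118 with shBP2-2.

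Several of the largest single values rested on entries that share sequence. ARPC4, an actin-nucleating subunit, was lower by -0.73 ± 0.0976 and the readthrough entry ARPC4-TTLL3, named after its values were seen, was higher by 3.95 ± 0.221, while their sum was 444 and 422 with shBP2-1 against 418 and 413 with shBP2-2. H4C11 differed by -4.58 ± 1.38 (adjusted p = 0.0482), with 494 and 0 with shBP2-1 against 766 and 612 with shBP2-2. The 0 in shBP2-1 replicate 2 stood beside 500 in its near-identical copy H4C12, and the pair summed to 494 and 500 with shBP2-1 against 766 and 621 with shBP2-2. Without shBP2-1 replicate 2 the H4C11 difference was -0.44. UBE2V1 was higher by 2.25 ± 0.192, and summed with its readthrough entry it had 139 and 144 with shBP2-1, against 36.7 and 44.7 with shBP2-2, and 121 and 104 with shNS. NOMO1 was lower by -1.37 ± 0.246, but the 3 NOMO copies summed to 690.0 and 619 with shBP2-1 against 810.0 and 811 with shBP2-2. The sums of SMN1 and SMN2 and of the 5 CBWD genes differed by 0.00 and 0.04 on the log2 scale. H2AC18 had an mRNA difference of 5.37 ± 1.22 that came from 100 in 1 shBP2-1 library, with 3.92 in the other and 0 in both shBP2-2 libraries. Readthrough entries were called in 38.2% of 34 cases and clone-named entries in 23% of 74, against 12.7% of entries with plain symbols.

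At the minimum mean of 10, the genes just inside were PEDS1-UBE2V1 (10.0), MX1 (10.0) and MKRN3 (10.01), and those just outside were ZNF160 (9.998), COQ4 (9.993) and ZNF736 (9.993). COQ4 had 9.91 and 13.3 with shBP2-1 against 9.47 and 7.32 with shBP2-2. At this level a deposited value of 5 corresponds to 9.91 and 11.1 in the shBP2-1 libraries, against 2.96 and 1.93 in the shBP2-2 libraries, so that 1 step of the deposited whole numbers is larger with shBP2-1. Of the 7593 genes, 255 reached the minimum through shBP2-1 alone, 62 of them called higher, and 283 through shBP2-2 alone, 40 of them called lower. Such genes had to differ, and their calls are a description. The naming rules mostly took calls with the largest differences or smallest p in these same libraries. How many named genes kept their calls therefore does not stand for all calls. Of 152 named genes with a footprint difference, 146 were called. Of these, 91 kept their call whichever library was left out and 55 lost it without at least 1 library, 45 without shBP2-1 replicate 1, 34 without shBP2-1 replicate 2 and 0 without a shBP2-2 library.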

How the data were processed

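The authors deposited 1 table of normalized read counts per gene and library, rounded to whole numbers and treated here as a score and not as counts. The labels do not say how they were normalized, and the submitters' processing notes list FastQC, cutadapt, Bowtie, STAR and RSEM with build hg38. Median-ratio factors were computed per assay over its hairpin libraries (footprints 0.504, 0.452 with shBP2-1, 1.69 and 2.60 with shBP2-2). Genes with a mean of at least 10 were tested with limma 3.58.1 in R 4.3.3, with voom weights (offset 0.5) and Benjamini-Hochberg adjustment over all genes. Footprint, mRNA and translational efficiency fits had 2, 2 and 4 residual degrees of freedom. The fits were tested on simulated data. The members and the 48 gene lists were chosen with earlier results of these data known. Lists can share genes, such as CHAC1, so counts from different lists are not independent. Genes named were fixed ones, the 12 largest differences per direction at a mean of at least 50, the 6 most abundant beyond a log2 difference of 1, the 4 smallest p in each list with 3 or more calls, the 6 largest efficiency differences per direction, up to 3 of opposite sign, and 3 on each side of the minimum. Symbols on several entries, clone names and readthrough names were left out, except beside the minimum. A few genes that these rules chose are not reported here. Coordinates and promoters are from RefSeq GRCh38.p14. Alternatives covered the test, pseudocount, scaling, minimum, control libraries, replicate block and single libraries. Depth in reads is unknown, since the deposited values are scaled.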

Additional observations from a re-analysis of the deposited data

How the results depend on the processing

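The 976 footprint calls became 564 after quantile scaling, 620 with shNS in the fit and 1653 with the replicate number as a block. Without each library in turn they ran from 344 to 1738, in fits that take the lone library of a hairpin to vary like the other pair. Without rescaling 7421 genes were called, 7404 of them lower, around a median of -2.12, and 414 of the 976 calls were turned round, so single genes are given relative to that median. The mRNA calls, 2229, became 1255 with the replicate block, and 1129 to 3004 without single libraries. Same-numbered libraries deviated together with r of 0.0231 in footprints and -0.373 in mRNA, so they share only a number, and a crossed pairing for mRNA, added after the data were seen, gave 6631. The 88 efficiency calls became 35 after scaling by totals, 7384 without rescaling, 49 at a mean of at least 50 and 54 with shNS in the fit, and ran from 38 to 188 without single libraries. PKM turned to -0.02 (adjusted p = 0.617) after quantile scaling. The cause was not tested in any of these. H4C11 lost its call under 7 alternatives, and quantile scaling and the fit with shNS ended 22 and 19 calls of genes that the naming rule chose. Of the genes described, CKS1B, MRPL58, PHGDH, SLC1A3, SREBF2, HSPA9 and NKG7 lost their calls under both, AHI1, NIP7 and P4HB under quantile scaling, and RPS25 with shNS in the fit. The other alternatives kept each total within 1.5 times but not each direction, as the trend test gave 707 lower in footprints and scaling by totals 575 higher in mRNA. With 2 libraries per hairpin and low deposited values with shBP2-1, small differences in low genes were not detectable.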
